A study of Mus musculus with 4 samples.

Results

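The Hedgehog pathway was examined through 9 genes, Shh, Ihh, Smo, Ptch1, Gli1, Gli2, Gli3, Hhip and Gas1, in cells sorted from mouse embryonic kidney at E15.5. Members were the non-control array probes whose gene name was one of these symbols, which found all 9 among 31809 gene names on the array and gave 14 of 39429 probes, each a strand of 60 bases: 1 probe for each of 5 genes, 2 for Smo, Ptch1 and Hhip, and 3 for Gas1. Kidneys with the Six2GFP reporter came from mice of mixed 129 and C57BL/6 background. A cell sorter divided their cells by GFP into a Six2GFP-positive population, which the labels call nephron progenitors, and a Six2GFP-negative one, the rest of the organ. Each population was measured on 2 one-colour arrays, 1 array per sample, labelled with Cy3 from 0.25 ug of RNA. The labels do not say how the GFP reporter was made, how many kidneys were pooled or whether the 2 arrays of a group came from separate litters, so p-values measure only the spread between these samples. They also name tamoxifen in the description of every sample and nephron progenitor as the cell type of the negative cells too, while the protocols mention no tamoxifen; the groups here follow the titles.

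Hedgehog ligands are secreted proteins that bind the membrane protein PTCH1 and so release its block on SMO, a membrane protein of the primary cilium. Active SMO turns the GLI transcription factors from repressors into activators, GLI3 being the main repressor. PTCH1, GLI1 and HHIP are made in response to the signal, and PTCH1 and HHIP bind ligand and dampen it, while GAS1 is a membrane co-receptor that helps cells to take up low amounts of ligand. In the developing kidney, Shh is known from the epithelium of the collecting duct and ureter, Ihh from the nephron tubule, and the responding cells from the mesenchyme around the ureter and in the medulla.

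The sorted populations differed widely, and this sets the scale for the members. A probe was tested when it stood well above background in both replicates of either population, which held for 30012 probes. Limma called 12210 of them (40.7%) at an adjusted p of 0.05. Signal was higher in Six2GFP-positive cells for 6810 (22.7%) and lower for 5400 (18.0%). Higher calls were 55.8% of all calls, and 76.3% when arrays were centred on their median instead of the 75th percentile. The median log2 difference over all probes was 0.17, and 0.44 with that centring, so a small positive difference is the ordinary value on these arrays. Between 72.5% and 79.1% of spots on an array were well above background and none was saturated; precision is limited by having 2 arrays per group. Six2 and Cited1, which mark the cap mesenchyme, were higher in Six2GFP-positive cells by 5.84 ± 0.10 and 4.82 ± 0.17 on the log2 scale (SE, 2 arrays a group; adjusted p in limma = 4.8e-04 and 5.4e-04), and 7 of 8 cap mesenchyme markers rose.

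The members moved in both directions. Gas1 was higher in Six2GFP-positive cells by all 3 of its probes, Shh, Ihh, Gli1, Gli2 and Hhip were lower by all of theirs, and Smo, Ptch1 and Gli3 did not pass the threshold by any probe. Of the 14 probes, 3 were higher (21.4%, against 22.7% of all probes) and 6 lower (42.9%, against 18.0%). With a difference of at least 2-fold, 3 were higher (21.4%, against 3.80%) and 5 lower (35.7%, against 12.5%). These shares describe a list chosen with results of these data known, its probes are not independent where they share a gene, and 2 of the 6 lower probes entered the test only through the negative cells. The groups did not overlap on 13 of the 14 probes (7 higher, 6 lower), while 49.1% and 26.8% of all probes separated in the same way, so separation alone says little at 2 arrays a group. In these bulk samples fewer cells of a type and less RNA per cell cannot be told apart.

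**Figure D1:**
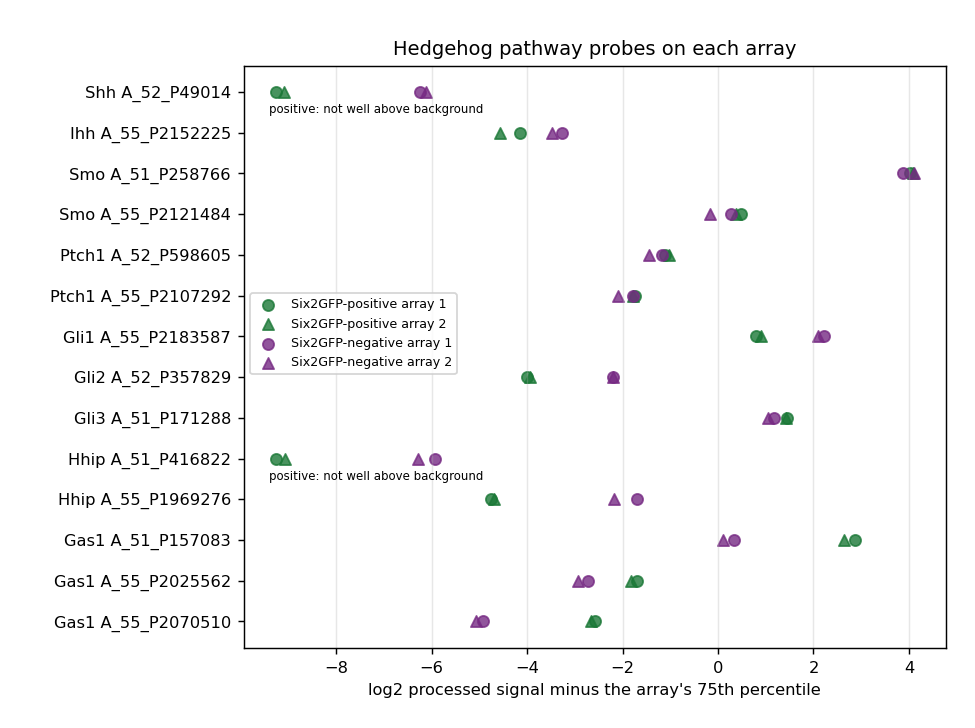
Scaled log2 signal of each Hedgehog pathway probe (rows) on each of the 4 arrays: green points are Six2GFP-positive, purple points Six2GFP-negative, circles array 1 and triangles array 2. The Gas1 rows have both green points to the right, the Gli1, Gli2 and Hhip rows both purple points, and the Smo, Ptch1 and Gli3 rows lie close together; Shh and 1 Hhip probe were not well above background in positive cells.

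All signals below are log2 of the processed signal minus the array's 75th percentile, called the scaled log2 signal, and differences are positive minus negative cells. A value of 0 is thus the brightness of the spot at the 75th percentile. Signals of different probes are not ranked against each other, since probes differ in how brightly they bind.

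Shh, the ligand of the collecting duct and ureter, was above background in the negative cells only. Its probe (mm9 chromosome 5, 28783983 to 28784042, minus strand) is printed on the array in 10 spots. The scaled log2 signal was -6.25 and -6.12 on the negative arrays, where all 10 spots were well above background on both. It was -9.27 and -9.09 on the positive arrays, where none was, and where 8 and 10 of the spots bore a substituted value that the scanner software gives to spots not above background. The spots of an array lay close together, with unscaled signals from 16.8 to 25.6 on negative array 1 and from 21.5 to 26.4 on negative array 2, against at most 4.03 on either positive array. Shh was therefore at least 1.92-fold lower in Six2GFP-positive cells, the bound being set by the dimmest probe that counts as well above background on the positive arrays. The measured log2 difference was -3.00 ± 0.11 (limma adjusted p = 5.8e-04). In the positive cells that difference and its SE rest mostly on substituted values. With normexp background correction, which adds 50 units to every signal, the difference was -0.32 (adjusted p = 0.0174).

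**Figure D2:**
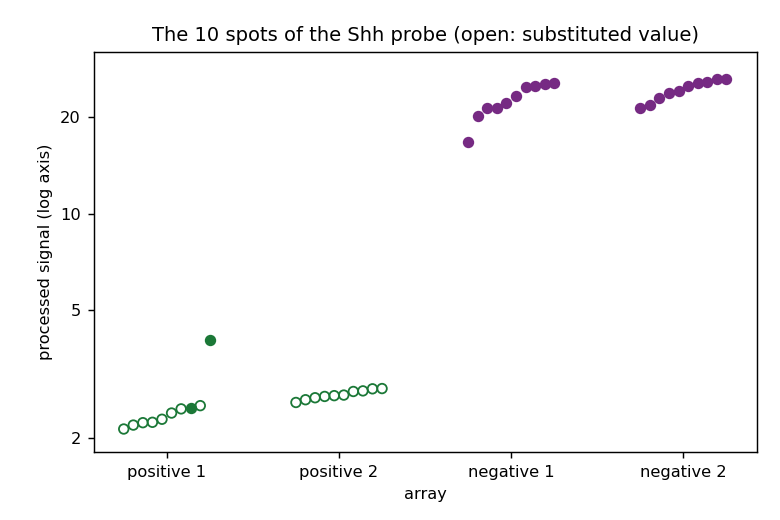
Unscaled processed signal (log axis) of the 10 spots of the Shh probe on each array, sorted by signal within an array; open circles are spots with a substituted value. All spots on the negative arrays lie between 16.8 and 26.4, and no spot on the positive arrays exceeds 4.03.

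Markers of the ureteric bud, collecting duct and urothelium, where Shh is known to be made, moved the same way: 11 of 13 were lower in Six2GFP-positive cells and none higher, Ret by -6.66 ± 0.15 and Gata3 by -5.13 ± 0.38. Their summed signal, in units of the 75th percentile, was 4.45 to 5.11 on the positive arrays and 28.9 to 35.3 on the negative arrays. Such a sum is weighted toward the probes that bind most brightly. The epithelial gene Trp63 gave 2.06 units on each positive array by its brighter probe, which did not pass (-0.14), while its other probe differed by -2.35. Without Trp63 the sums were 2.39 to 3.05 against 26.4 to 33.2. The probe of the urothelial gene Upk1b did not stand well above background on either positive array. How far this cell type accounts for the Shh difference was not tested.

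Ihh, the ligand of the tubule, was measurable in both populations. Its probe (chromosome 1, 74991906 to 74991965, minus strand) gave -4.16 and -4.56 in positive cells against -3.28 and -3.48 in negative cells. The groups did not overlap, and the positive arrays were 0.40 apart, the widest gap between them among the 14 member probes. Ihh was 1.97-fold lower (-0.98 ± 0.18; adjusted p = 0.0214). This call ended without positive array 2 (adjusted p = 0.0600), negative array 1 (0.0875) or negative array 2 (0.0708), and held without positive array 1; with normexp correction the difference was -0.52, and -0.43 with quantile normalization added. Proximal tubule markers were lower too, 6 of 8 with none higher, led by the transcription factor Hnf4a (-4.58 ± 0.15). Their summed signal was 1.49 on positive array 1 and 0.935 on positive array 2, against 14.1 to 16.2 on the negative arrays. The array with the higher tubule sum had the higher Ihh signal of the 2 positive arrays and the lower of the 2 negative arrays. The order of the negative arrays turned on Hnf4a, the gene that adds most to the positive sums. Without Hnf4a the sums were 1.06 and 0.528 on positive arrays 1 and 2, and 5.19 and 4.89 on negative arrays 1 and 2. The array with the higher sum then had the higher Ihh signal in both groups. The part of tubule cells in the Ihh difference was not tested.

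Dhh, the third mammalian ligand, is no member but belongs to the list of other ligand and receptor genes. Its probe read -2.94 and -2.93 on the negative arrays and was not well above background on the positive arrays (-8.05 and -7.29). It was at least 18.2-fold lower in Six2GFP-positive cells (measured log2 difference -4.74 ± 0.28; limma adjusted p of that difference = 0.00134). All the ligand genes of the family thus had lower signal in the progenitor population. Shh and Dhh entered the test only through the negative cells, which left only a lower value possible. The Ihh call did not hold with each array left out.

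At the membrane the picture was divided. Smo, which carries the signal into the cell, was bright by the probe at chromosome 6, 29711225 to 29711284, with 4.03 and 4.08 in positive cells against 3.87 and 4.1 in negative cells. These groups overlapped, and the difference was 0.07 ± 0.12 (95% interval -0.26 to 0.39; adjusted p = 0.666), or -0.14 with quantile normalization. A second Smo probe, 29710919 to 29710978, read 0.48 and 0.37 against 0.28 and -0.17, without overlap, and differed by 0.37 ± 0.18 (interval -0.13 to 0.87; adjusted p = 0.172). Neither interval reaches a 2-fold change in either direction, and neither shows that the levels are equal.

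Ptch1, the ligand receptor and a target of the pathway, did not pass by either of its probes. The first (chromosome 13, 63610298 to 63610357) read -1.11 and -1.03 in positive cells against -1.17 and -1.44 in negative cells. That is a difference of 0.24 ± 0.13 (interval -0.12 to 0.59; adjusted p = 0.210). The second, at chr13:63612879-63612938 on the minus strand of mm9, is shown because it gave a difference close to that of the first from another stretch of the gene; 1 of its 3 forward reading frames is free of stop codons.
Ptch1 A_55_P2107292: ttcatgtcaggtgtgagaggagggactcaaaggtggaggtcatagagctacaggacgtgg
It read -1.74 and -1.77 against -1.78 and -2.09, a difference of 0.18 ± 0.14 (interval -0.20 to 0.56; adjusted p = 0.347). Both values were close to the median of all probes, 0.17, and both probes passed only when arrays were centred on their median (0.50 and 0.45; adjusted p = 0.0225 and 0.0325), a setting that shifts every probe up by the same amount. On both probes the 2 positive arrays lay within 0.08 of each other while the negative arrays were 0.27 and 0.31 apart.

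Hhip, the membrane-tethered decoy that binds Hedgehog ligand, was lower by both probes. The brighter probe (chromosome 8, 82494280 to 82494339) was well above background on all arrays, with -4.76 and -4.69 in positive and -1.71 and -2.17 in negative cells. It differed by -2.78 ± 0.19, or 6.88-fold (adjusted p = 0.00176), and by -1.89 with normexp correction. The dimmer probe (82490729 to 82490788) read -5.92 and -6.28 on the negative arrays. It was not well above background on the positive arrays (-9.26 and -9.07), where its values were substituted ones. It was at least 2.03-fold lower (measured log2 difference -3.07 ± 0.17; limma adjusted p of that difference = 0.00111). Its call ended with normexp correction (-0.20; adjusted p = 0.102). On the brighter probe the negative arrays were 0.46 apart and the positive arrays 0.07, and both negative arrays stood above both positive ones. For the dimmer probe the spread between the positive arrays was not measured.

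Gas1, the co-receptor, was the member that rose in Six2GFP-positive cells, and its probes differed in how much. The probe nearest the 3' end among the 3 (chr13:60276399-60276458, minus strand) read 2.88 and 2.63 in positive cells against 0.33 and 0.11 in negative cells, a 5.79-fold difference (2.53 ± 0.14; adjusted p = 0.00121). The probe nearest the 5' end (chr13:60278243-60278302) read -2.59 and -2.67 against -4.92 and -5.07 and gave 5.16-fold (2.37 ± 0.10; adjusted p = 7.2e-04). The one between them (chr13:60277268-60277327) read -1.69 and -1.82 against -2.71 and -2.93 and gave 2.09-fold (1.06 ± 0.12; adjusted p = 0.00655). No probe had overlapping groups, and the calls held for all 3 under every alternative tried and with each array left out. The middle probe differs from the other two in base composition: 85% of its bases are G or C, against 38.3% in the 3' probe and 60% in the 5' probe. They are shown for that contrast, the first and last as their first 30 bases and the middle one whole, with the longest unbroken run of G and C in capitals.
Gas1 A_51_P157083: aaagttaCCatggtgttgaacaatgcatgt
Gas1 A_55_P2025562: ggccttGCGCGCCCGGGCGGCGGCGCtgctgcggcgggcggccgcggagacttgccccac
Gas1 A_55_P2070510: atggatgaggaCGCCCatgccagaagtgcg
The run is 20 bases long in the middle probe and 2 and 5 in the stretches shown of the others. Whether composition accounts for the smaller difference was not tested. Under normexp correction the 5' probe gave 1.60 and the middle probe 0.92.

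The co-receptor genes Cdon and Boc did not pass the threshold. Cdon and Boc, which like Gas1 present ligand to PTCH1, differed by 0.26 ± 0.12 and -0.24 ± 0.15 (adjusted p = 0.157 and 0.248), with -0.19 ± 0.09 by a second Cdon probe (adjusted p = 0.172), and the proteoglycan gene Gpc3 by -0.12 ± 0.14 (adjusted p = 0.517). Lrp2, a large endocytic receptor that is also an established protein of the proximal tubule, was lower (-1.65 ± 0.13; adjusted p = 0.00243). Disp1, which releases ligand from cells that make it, was higher by 1.32 ± 0.09 (adjusted p = 0.00216). The secreted release factors Scube3 and Scube2 were lower by -2.20 ± 0.12 and -1.50 ± 0.12, although a second Scube2 probe gave 0.01. Of the 12 ligand and receptor genes tested outside the members, by the brightest probe of each, 1 was higher and 4 lower, against 22.7% and 18.0% of all probes, with a median of -0.03. With array median centring 5 were higher, against 49% of all probes. With quantile normalization or the replicate block 2 were higher, against 26% and 20.8% of all probes. Disp2 was not tested because no group was well above background on both arrays.

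**Figure D3:**
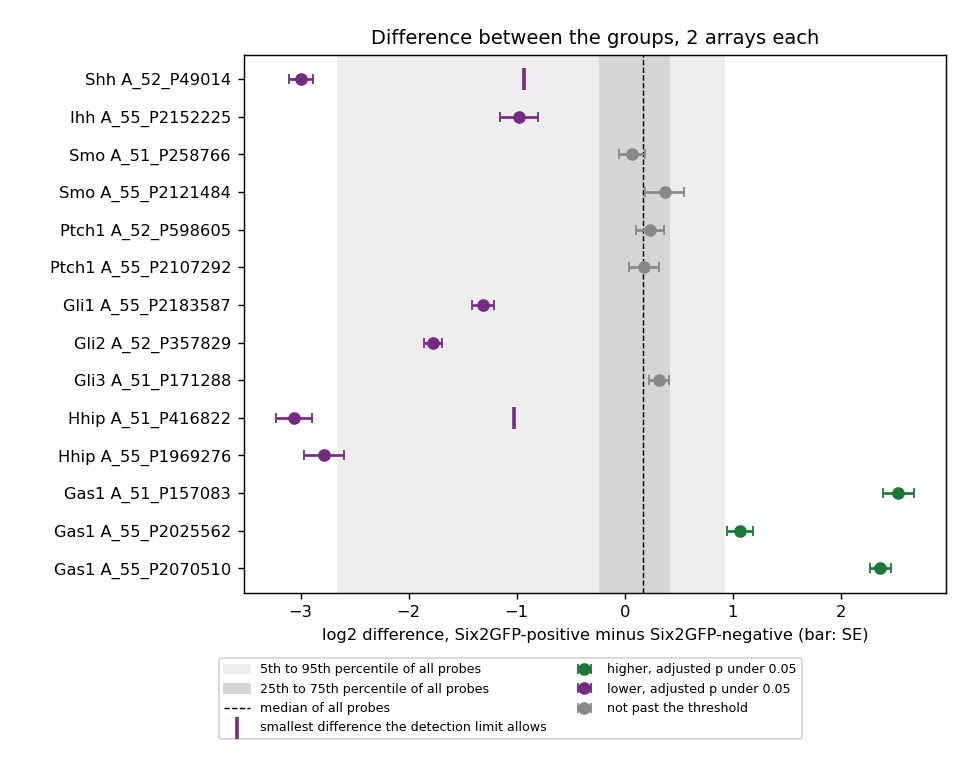
Log2 difference between Six2GFP-positive and Six2GFP-negative cells for each probe, with limma's standard error as bar; shading gives the 5th to 95th and 25th to 75th percentiles of all 30012 probes and the dashed line their median, 0.17. Gas1 lies at 1.06 to 2.53, Gli1, Gli2 and the brighter Hhip probe at -1.31 to -2.78, and upright marks give the smallest difference the detection limit allows for Shh and the dimmer Hhip probe.

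The 3 GLI transcription factors differed from each other. Each was measured by 1 probe, of which the first 30 bases are given to show that these are separate sequences; over their full length no 2 of them share a run longer than 6 bases.
Gli1 A_55_P2183587: ggggctgtatttagtctatgtatgttccag
Gli2 A_52_P357829: aggcattgattcttggactttgaggaactc
Gli3 A_51_P171288: tgttctcctctgacaagttacgcttgtata
Gli1, an activator that the pathway itself induces (probe at chromosome 10, 126766967 to 126767026), read 0.80 and 0.90 in positive cells against 2.22 and 2.1 in negative cells. It was 2.49-fold lower in Six2GFP-positive cells (-1.31 ± 0.10; adjusted p = 0.00240). Gli1 was well above background on all 4 arrays, so its RNA was measurable in the positive population too.

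Gli2, the main activator of the family (chromosome 1, 120731255 to 120731314), read -4.0 and -3.95 in positive cells against -2.19 on both negative arrays, a 3.43-fold difference (-1.78 ± 0.08; adjusted p = 8.4e-04). The 2 arrays of a group differed by at most 0.05. With normexp correction it gave -1.29, or -1.19 with quantile normalization added.

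Gli3, the main repressor (chromosome 13, 15821502 to 15821561), had a small positive difference that did not pass the threshold. It read 1.44 and 1.43 in positive and 1.18 and 1.05 in negative cells, a difference of 0.32 ± 0.09 (interval 0.06 to 0.58; adjusted p = 0.0601). Gli3 thus lay inside the middle range of all probes, whose 25th and 75th percentiles were -0.23 and 0.41. It did pass in limma with array median centring (0.59, adjusted p = 0.0109). It also passed with normexp correction and the 75th percentile (0.31, adjusted p = 0.0273) and with an intensity trend in the variance (0.32, adjusted p = 0.0216). It did not pass with quantile normalization, either alone (0.18, adjusted p = 0.194) or after normexp correction (0.19, adjusted p = 0.121).

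Ratios of 2 members within an array cancel any scaling of that array, but not the handling of background. The log2 ratio of the Gli3 to the Gli2 probe was 5.44 and 5.38 in positive cells against 3.37 and 3.24 in negative cells, so the balance of the probes shifted by 4.28-fold toward Gli3. For Gli3 over Gli1 the shift was 3.11-fold, with 0.64 and 0.53 against -1.05 and -1.05. Gli1 over Gli2 shifted less, by 1.38-fold (4.79 and 4.85 against 4.42 and 4.29). Among the response genes, Ptch1 over Gli1 shifted by 2.93-fold (-1.90 and -1.93 against -3.39 and -3.54) and Ptch1 over Hhip by 8.11-fold (3.65 and 3.66 against 0.54 and 0.73), each by the brightest probe. In each of these ratios the 2 groups were further apart than the arrays within a group. A two-sided exact permutation test of a single ratio cannot go below p = 0.333 here, and none was made. With normexp correction Gli1 and Gli2 differed alike, by -1.30 and -1.29, so their ratio hardly shifted. With quantile normalization added they gave -1.42 and -1.19, a shift the other way. Under normexp correction Gli3 gave 0.31, Ptch1 0.23 and the brighter Hhip probe -1.89. Gli3 over Gli2 and Ptch1 over Hhip thus shifted less, in the same direction.

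Markers of the mesenchyme in which the Hedgehog response is known were lower in Six2GFP-positive cells alongside Gli1, Gli2 and Hhip. Of 9 markers of ureteric and medullary mesenchyme and smooth muscle, 8 were lower and 1 higher. Tbx18, a transcription factor of the ureteric mesenchyme, was at least 26.2-fold lower, its probe not standing well above background on either positive array, and smooth muscle actin, Acta2, differed by -4.66 ± 0.11; the exception was the muscle filament gene Des, higher by 3.01 ± 0.16. Their summed signal was 4.0 to 4.07 on the positive and 18.4 to 20.5 on the negative arrays. Of 10 stroma markers 9 were lower and none higher, led by Alx1 (-5.51 ± 0.32) and Pdgfra (-5.39 ± 0.19), with a summed signal of 7.82 to 9.83 against 92.1 to 101. Foxd1, which marks cortical stromal progenitors, differed by -0.20 ± 0.15 (adjusted p = 0.338). Endothelial markers were lower in 7 of 8 cases, led by Robo4 (-5.59 ± 0.12) and Cdh5 (-5.46 ± 0.11), with summed signals of 5.71 to 6.01 against 13.05 to 13.9. Most of the positive sum came from the vascular receptor gene Kdr, which differed by 0.08 by its brighter probe and -5.27 by the other; without Kdr the sums were 0.252 to 0.268 against 8.07 to 8.32. The part of these cell types in the Gli1, Gli2 and Hhip differences was not tested.

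Textbook targets of the pathway outside the members were mostly lower. Of 15 tested, 9 were lower and 2 higher, against 18.0% and 22.7% of all probes, and the median was -1.04, or -0.55 with Foxf1 at its bound, its probe being too dim on both positive arrays to stand well above background. Foxl1, a forkhead factor of Hedgehog-responding mesenchyme, differed by -3.04 ± 0.11, the Wnt modulator Sfrp1 by -2.68 ± 0.21, Snai1, a regulator of mesenchymal state, by -2.38 ± 0.13, and the cell cycle gene Ccnd1 by -2.32 ± 0.11 (adjusted p from 5.6e-04 to 0.00254). Bcl2, a survival gene, was higher by 1.93 ± 0.11 and the forkhead gene Foxc2 by 0.69 ± 0.09 (adjusted p = 0.00112 and 0.00972), while Mycn differed by -0.04 ± 0.21 (adjusted p = 0.903). Many of these genes also answer to other signals. Foxf2 was not tested, being below that limit in both populations.

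Genes that carry the signal inside the cell ranged from -0.39 to 0.71, each by its brightest probe. Of 18 tested, 4 were higher and 1 lower, with a median of 0.25; of all probes 22.7% were higher and 18.0% lower, with a median of 0.17, and the share of higher genes was close to that background. Btrc, a ubiquitin ligase subunit that acts on GLI proteins, was higher by 0.71 ± 0.13, the kinase gene Stk36 by 0.55 ± 0.08, and Rab23, a negative regulator of the pathway, by 0.41 ± 0.09, while Evc, a cilium protein that binds SMO, was lower by -0.39 ± 0.09 (adjusted p from 0.0135 to 0.0361). Sufu, which holds GLI proteins in check, gave 0.23 ± 0.11 (adjusted p = 0.155), and -0.10 by a second probe (adjusted p = 0.723). Second probes of Btrc, Rab23 and Evc gave 0.41, 0.46 and -0.91 and did not pass (adjusted p = 0.183, 0.0989 and 0.152). That of Stk36 passed (0.38; adjusted p = 0.0387). Centring on the array median gave 15 higher, against 49% of all probes. Few or none of these genes passed with any 1 array left out, where fewer of all probes passed too.

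Cilium genes that Hedgehog signalling needs were modestly higher: 9 of 12 rose and none fell, against 22.7% and 18.0% of all probes, with a median of 0.48. Dync2h1, the motor that returns cargo from the cilium tip, was higher by 1.39 ± 0.14, Mks1, of the gate at the cilium base, by 0.78 ± 0.09, the transport gene Ift122 by 0.70 ± 0.08, and Rpgrip1l, another gate gene, by 0.63 ± 0.12 (adjusted p from 0.00538 to 0.0237). The count was 4 without a filter on dim probes, against 9.63% of all probes, and 12 with array median centring, against 49%. It was 6 with quantile normalization, against 26%, and 7 with the replicate block, against 20.8%. The remaining settings with all 4 arrays gave 8 to 11. Fewer of these genes passed with any 1 array left out, as did fewer of all probes. The median lay between 0.45 and 0.51 with any 1 array left out, and between 0.41 and 0.75 across all alternatives.

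**Figure D4:**
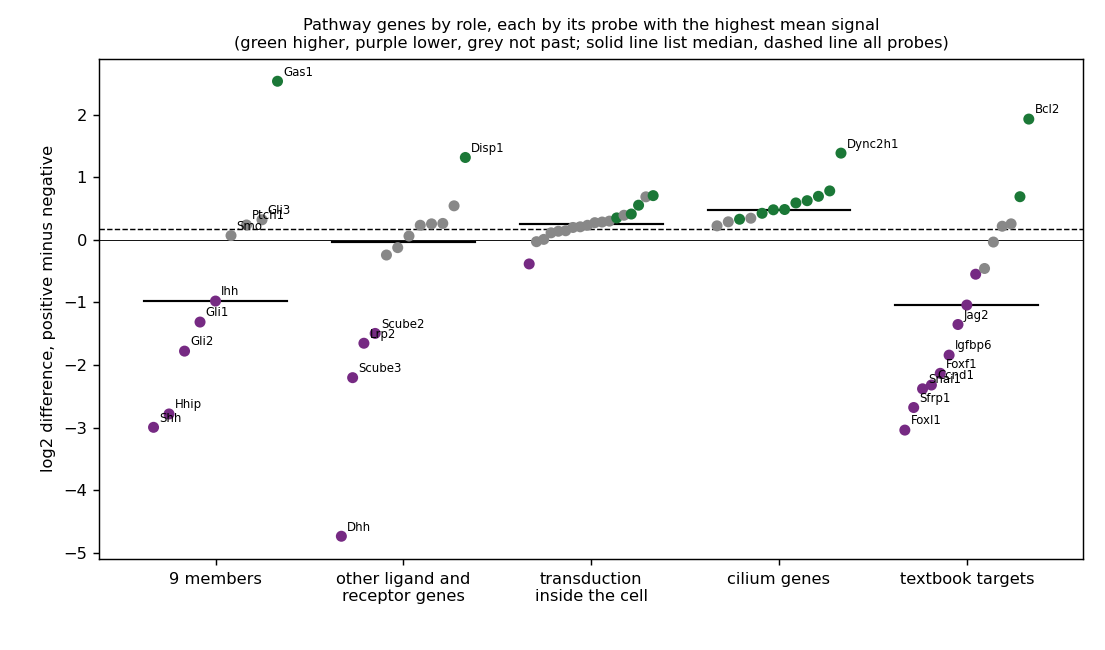
Log2 difference of each tested gene by role, each gene by its probe with the highest mean signal: green passed as higher, purple as lower, grey did not pass; Shh, Dhh and Foxf1 are drawn at their measured difference, not their bound. The solid lines are list medians (-0.98 for the 9 members, -0.03, 0.25, 0.48 and -1.04 for the other lists) and the dashed line is the median of all probes, 0.17.

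The genes whose signals over the 4 arrays were most like those of a member were found by the Euclidean distance between mean-centred log2 values, among 27618 probes well above background on all arrays. For the brightest Gas1 probe they were Krt15 (distance 0.05), Saa1 (0.12) and Dcx (0.12). For Gli3 they were Hrk, Gm1833 and B230369F24Rik, at 0.01 to 0.02, and for the brightest Ptch1 probe Mbtps2, LOC100048288 and a transcript with no symbol in the files, at 0.02 to 0.03. The distances rest on 4 arrays in 2 groups and describe these arrays only.

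**Figure D5:**
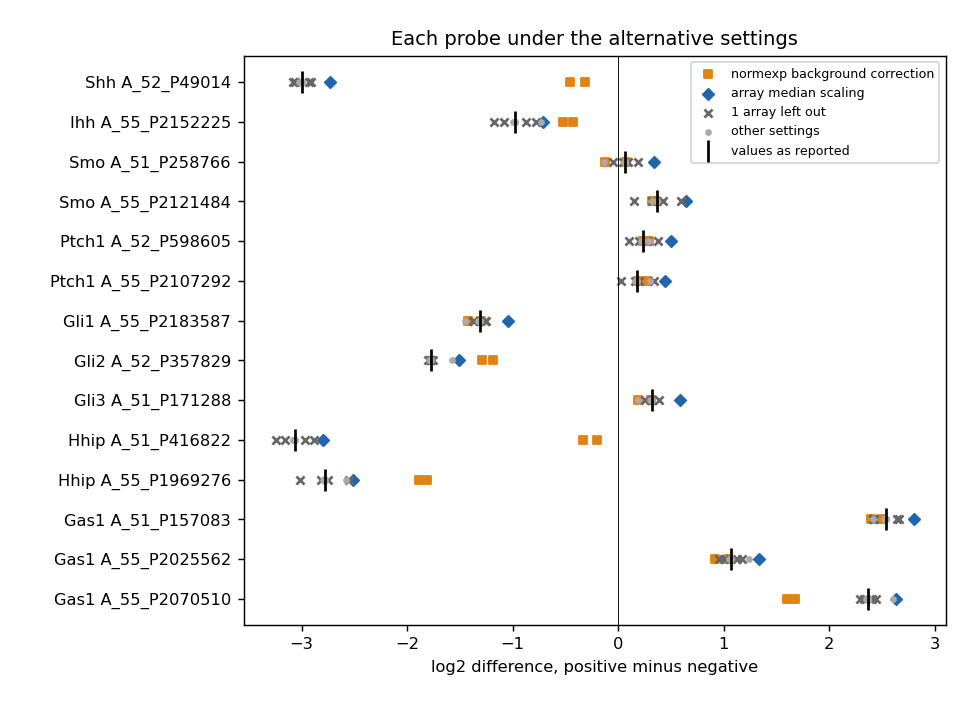
Log2 difference of each probe under every setting tried: the upright mark is the reported value, orange squares use normexp background correction, blue diamonds array median centring, crosses leave out 1 array and grey dots are the other settings. No probe that passed the threshold changes side of 0; the dim Shh and Hhip probes shrink to between -0.20 and -0.46 under normexp correction, and the Smo, Ptch1 and Gli3 probes reach at most 0.64.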

How the data were processed

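RNA of 2 Six2GFP-positive and 2 Six2GFP-negative samples was hybridised to 1 Agilent array each. Per the file headers, the authors quantified the scans with Feature Extraction 10.7.3.1, with spatial and multiplicative detrending, and gave probe positions on mm9. The deposited files hold linear intensity values per spot with no normalization between arrays. A value table, also deposited, holds the same intensity (99.8% of probes within 0.01 log2 on each array; medians of 114 and 110 in the positive samples and 158 and 143 in the negative samples), on a linear scale and not centred.

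Spots marked as outliers (108 to 174 on an array) were dropped and the log2 processed signals of a probe's spots averaged, which left 39395 of 39429 probes. From each was subtracted the array's 75th percentile over non-control spots. Probes standing well above background in both replicates of either population, 30012 in all, were fitted with limma 3.58.1 in R 4.3.3 (lmFit, eBayes, two-sided, Benjamini-Hochberg over all of them, threshold 0.05); the fit was tested on simulated data. All 14 member probes were kept. Errors are limma's standard errors and intervals are 95%. Where a group was not well above background on either array, only a bound on the fold is given. For it each dim value was replaced by that array's lowest signal well above background unless its own value was higher. An adjusted p beside a bound belongs to the measured difference and does not test the bound.

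A gene of the other lists was represented by its brightest probe on average, named through its RefSeq accession (26034 probes) or the file's name. Named were every member probe; from each other pathway list the 4 genes, and from each marker list the 2, with the largest difference past the threshold; Six2, Cited1 and Foxd1; and for Gas1, Gli3 and Ptch1 the 3 most alike genes. Other names were chosen after their values were seen. Some genes that the rule or the lists hold are not reported here by name. Members and lists were chosen with earlier results of these data known. Alternatives were quantile normalization, array median centring, normexp background correction (offset 50) with percentile or quantile scaling, the deposited value table, no filter, a filter on all 4 arrays, robust variances with an intensity trend, a block for the replicate number, and dropping 1 array at a time. All arrays lay on 1 slide with 1 recorded scan time, so slide and scan time left no batch to fit. Batches at other steps are not excluded by that.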

Additional observations from a re-analysis of the deposited data

How the results depend on the processing

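Over the 13 alternatives, 170 values of the member probes stayed on their side of the threshold, with their direction where they had passed; 4 calls ended (the dimmer Hhip probe with normexp correction and the 75th percentile, Ihh without 3 of the 4 arrays) and 6 were gained (4 of them with array median centring). The number of member probes higher was 3 of 14, against 22.7% of all probes. Array median centring added 1 Smo, both Ptch1 probes and Gli3 and gave 7, against 49% of all probes. In the other settings with all 4 arrays it was 3 or 4, against 9.63% to 32% of all probes. The number lower was 6, and between 4 and 6 in the settings with all 4 arrays, against 12% to 18.9% of all probes. The 4 came from the filter on all 4 arrays, which removes Shh and 1 Hhip probe. Over all probes 12210 passed; array median centring gave 19253, and leaving out 1 array 5761 to 6482. The number of all probes higher, 6810, was 14693 with array median centring, 3792 without a filter and 1838 to 2740 with 1 array left out. The median of the other ligand and receptor genes, -0.03, turned to 0.24 with array median centring, 0.0603 with the filter on all 4 arrays and 0.0874 without positive array 2, and lay between -0.174 and 0.0874 with 1 array left out. The cause was not tested. The labels number samples alike in both groups without saying what the number marks. Across probes the deviations of the samples numbered 1 correlated at 0.22, and the replicate block gave 11671 probes past the threshold and the same counts of member probes, 3 higher and 6 lower; 2 pairs cannot show whether the numbers pair the samples. For Shh and the dimmer Hhip probe, signal over background limits what can be said: only a bound was measured.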

Other observations

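The consensus letters to which GLI proteins are known to bind, GACCACCCA, were searched on both strands in the RefSeq promoter windows of build GRCm38.p6, which run from 250 bases before to 50 after a gene's start. Windows were found for 7 members, Ihh, Smo, Ptch1, Gli2, Gli3, Hhip and Gas1, and none of the 7 held the letters. They occurred in 83 of 32851 windows of the genome, or 0.253%. That says only that these letters are not in these windows.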
